A study of Solanum lycopersicum with 29 samples.

Results

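Anthers of the ethylene-insensitive tomato mutant Never ripe (NR) and of the wild type (WT) were compared for their response to long-term mild heat (LTMH). The response of a gene is its log2 fold change of LTMH over control temperature (CT), and the interaction is the NR response minus the WT response, so a positive interaction means a response that was more positive in NR than in WT. All genes with enough reads were included without selection on their values, which left 20895 of the 35092 genes in the count table. The groups were NR in LTMH (3 libraries), NR in CT (4), WT in LTMH (3) and WT in CT (4), which is 14 of the 29 libraries of the series. The other 15 libraries came from the salicylic acid-deficient line 35S::nahG and the strigolactone biosynthesis antisense line 35S::asCCD7, and were used only to see how NR compared with lines other than WT. All plants were cv. Micro-Tom. They grew at 25 °C by day, 19 °C by night and 50% relative humidity in CT, and LTMH plants were moved at flowering to 34 °C by day, 28 °C by night and 68% relative humidity for 8 days. Each library was made from 6 pooled anthers at the polarized microspore stage. The labels do not say whether the pools came from separate plants, so p-values measure only the spread between these samples. The mutation is carried by the whole plant and is not specific to the anther.

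Ethylene is a gaseous hormone that is perceived by membrane receptors which, without ethylene, keep the pathway off through the CTR1 kinase. When ethylene binds, EIN2 is released to relay the signal to EIN3/EIL transcription factors, which switch on genes of the ERF family. Never ripe carries a dominant change in an ethylene receptor that prevents ethylene binding, and its fruits fail to ripen. Jasmonate, another stress hormone, is perceived by the F-box protein COI1, which targets JAZ repressors for degradation, and JAZ genes are themselves induced by jasmonate.

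The 14 libraries held 32311645 to 42353956 counted reads. In a principal component analysis of log2 CPM (reads per 1e6 counted reads, after TMM scaling), the first component held 38.8% of the variance and the second 25.8%. On the second component the NR libraries lay between −53.2 and −12.8 and the WT libraries between 19.5 and 47.4. NR LTMH replicate 4 stood apart from its group, with 79.1 on the first component against 48.4 and 31.4 in replicates 1 and 3. Tapetum and exine genes varied within every group. Of 12 marker genes 9 were tested, and their summed level was 123 to 497 CPM in NR LTMH, 511 to 3559 CPM in NR CT, 215 to 549 CPM in WT LTMH and 767 to 4016 CPM in WT CT. The markers MS2 and one copy of WBC27 had 0 reads in every library. Of 9 microspore and pollen markers 6 were tested, with a summed level of 17.4 to 48.1 CPM. In whole anthers, fewer cells of a type and less RNA per cell cannot be told apart.

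The LTMH response of 1268 genes (6.07% of those tested) differed between NR and WT by at least 1.5-fold at an adjusted p under 0.05 in edgeR's quasi-likelihood test, the rule for every call and adjusted p below. The interaction was above 0 for 599 genes (2.87%) and below 0 for 669 genes (3.2%). Large values were mostly below 0, since of 273 called genes with an absolute log2 interaction of at least 2, 66 were above 0 and 207 below. LTMH changed 2162 genes in NR (10.3%), of which 1095 rose (5.24%) and 1067 fell (5.11%). In WT it changed 3686 genes (17.6%), of which 1902 rose (9.1%) and 1784 fell (8.54%). The median log2 interaction over all tested genes was 0.01.

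**Figure D1:**
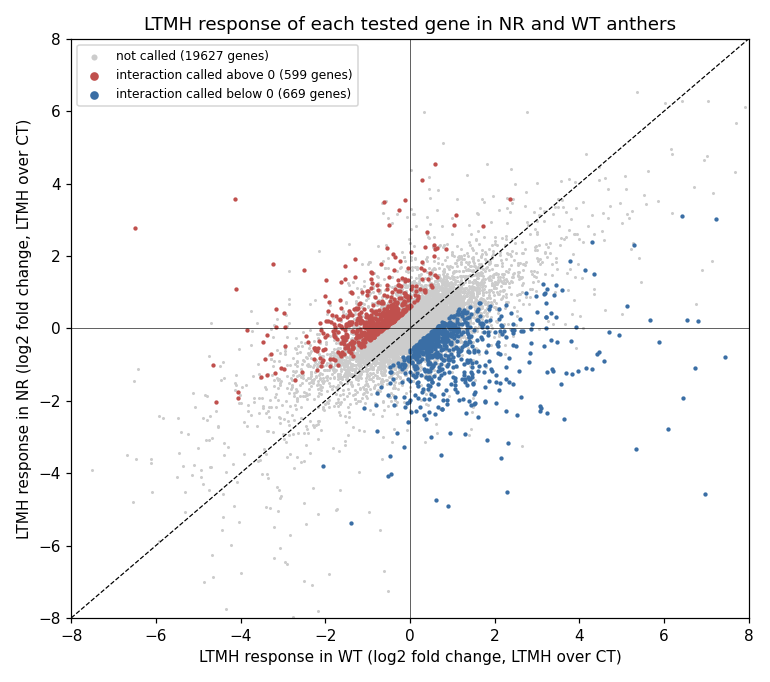
Each point is 1 tested gene, with its log2 LTMH response in WT on the x axis and in NR on the y axis; the dashed line marks equal responses and 2 genes lie outside the axes. The 669 genes called below 0 lie right of the line, mostly where WT rose, and the 599 called above 0 lie left of it, mostly where WT fell.

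Both directions were mainly made up of genes that LTMH moved in WT. Of the 669 genes with an interaction below 0, 394 rose with LTMH in WT and 6 fell, while 13 rose and 268 fell in NR. Their median log2 response was −0.50 in NR and 0.76 in WT. These genes differed between the lines chiefly in CT, where 489 were higher in NR than in WT and 4 lower; in LTMH 11 were higher and 113 lower. Of the 599 genes with an interaction above 0, 121 rose and 31 fell with LTMH in NR, against 9 that rose and 364 that fell in WT. Their median log2 response was 0.20 in NR and −0.77 in WT. Here both temperatures contributed to the difference from WT, with 238 genes higher in NR than in WT in LTMH and 192 lower in CT. In LTMH few of them differed between NR and 35S::nahG or 35S::asCCD7, as given below. Of all tested genes, NR differed from WT in 1337 in LTMH (6.4%), with 790 higher (3.78%) and 547 lower (2.62%) in NR, and in 2229 in CT (10.7%), with 1288 higher (6.16%) and 941 lower (4.5%) in NR. These counts come from the same libraries as the interaction and describe it.

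TD2, a threonine dehydratase that in tomato is a jasmonate-induced defence protein, was the called gene with by far the most reads among those named here. It had 23027, 17712 and 22370 CPM in NR LTMH libraries and 27626, 27127, 25998 and 33874 CPM in NR CT libraries, against 27660, 27984 and 28750 CPM in WT LTMH libraries and 5187, 4785, 5623 and 5173 CPM in WT CT libraries. All NR CT libraries were thus near the WT LTMH level, and far above the WT CT libraries with no overlap. The log2 interaction of TD2 was −2.88 ± 0.20 (SE, adjusted p = 3.73e-06). LTMH raised TD2 in WT by a log2 fold change of 2.44, whereas the NR response of −0.45 (adjusted p = 0.0363) was under 1.5-fold and so not called.

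The jasmonate list (COI1 and the JAZ genes) was likewise mostly below 0. Of its 13 genes 10 were tested, of which 7 had an interaction below 0 and none one above 0, beside 3.2% and 2.87% of all tested genes. The list's median log2 interaction was −1.98, with a median response of −0.13 in NR and 1.38 in WT. In CT, 7 members were higher in NR than in WT, and in LTMH none was called in either direction. The list is the tomato gene family as the study names it.

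JAZ7 had 35.1, 20.5 and 53.2 CPM in NR LTMH and 103, 87.1, 84.1 and 107 CPM in NR CT libraries, against 43.8, 39.8 and 47.5 CPM in WT LTMH and 15.4, 13.6, 20.9 and 15.4 CPM in WT CT libraries. It fell with LTMH in NR and rose in WT, and its log2 interaction was −2.81 ± 0.34 (adjusted p = 0.000168). JAZ1 had 77.6, 43.6 and 178 CPM in NR LTMH and 199, 169, 174 and 222 CPM in NR CT libraries, against 130, 79.5 and 120 CPM in WT LTMH and 38.7, 52.1, 43.7 and 38.7 CPM in WT CT libraries. The CT libraries of the lines did not overlap, while in LTMH NR replicate 4 was higher than all WT libraries and replicates 1 and 3 were lower. The log2 interaction of JAZ1 was −2.28 ± 0.49 (adjusted p = 0.00951). JAZ6 at −1.59, JAZ5 at −1.09, JAZ4 at −2.11, JAZ3 at −2.02 and JAZ2 at −1.93 were the other called members.

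COI1, the receptor itself, had a log2 interaction of 0.08 ± 0.08 (adjusted p = 0.609), with 46.8 to 50.5 CPM in NR LTMH, 45.5 to 53.2 CPM in NR CT, 44.1 to 47 CPM in WT LTMH and 45.8 to 49 CPM in WT CT, so that the groups overlapped. JAZ13 had −0.67 and JAZ11 −2.81 ± 2.14 (adjusted p = 0.464), and neither was called. JAZ11 had 12 CPM in NR LTMH replicate 4 but 0.931 and 0.172 CPM in replicates 1 and 3. The number of JAZ genes called depended on single libraries. It was 8 without NR LTMH replicate 4, 4 without WT LTMH replicate 4 and 5 to 7 without any other library.

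Only 223 of the 1268 called genes had a description, so most called genes could not be ranked as annotated. Among the annotated genes with the most negative interactions were 3 described as enzymes of sterol metabolism, which were not a list of their own. 7-dehydrocholesterol reductase (Solyc06g074090), which reduces the sterol B ring, had 245, 175 and 314 CPM in NR LTMH and 783, 738, 615 and 861 CPM in NR CT libraries, against 268, 297 and 299 CPM in WT LTMH and 88.8, 69, 98.8 and 81.8 CPM in WT CT libraries. It fell with LTMH in NR and rose in WT, and the lines overlapped only in LTMH. Its log2 interaction was −3.38 ± 0.25 (adjusted p = 4.37e-06). The steroid 5-alpha-reductase DET2 (Solyc10g086500), whose Arabidopsis namesake acts in brassinosteroid synthesis, had 50.6, 33 and 83.3 CPM in NR LTMH and 291, 281, 235 and 320 CPM in NR CT libraries, against 48.9, 60.7 and 61.1 CPM in WT LTMH and 20.8, 18, 26.7 and 24.8 CPM in WT CT libraries. Its log2 interaction was −3.67 ± 0.35 (adjusted p = 1.99e-05), again with opposite responses, −2.34 in NR and 1.33 in WT.

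Methylsterol monooxygenase 2.1 (Solyc06g005750), which removes a methyl group from sterol precursors, had a log2 interaction of −2.88 ± 0.22 (adjusted p = 5.24e-06). The glycosyltransferase Solyc07g043500 had the lowest interaction of the annotated genes that kept their call when any library was left out. It had 139, 84.6 and 183 CPM in NR LTMH and 633, 715, 512 and 763 CPM in NR CT libraries, against 71, 89.3 and 85 CPM in WT LTMH and 17.5, 14.1, 18 and 17.9 CPM in WT CT libraries. In CT the lines differed by a log2 value of 5.28 ± 0.23, and the log2 interaction was −4.55 ± 0.31 (adjusted p = 3.57e-06). Glycosyltransferases attach sugars to small molecules, and the substrate of this one is not given in the annotation used.

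The brassinosteroid metabolism list holds 7-dehydrocholesterol reductase and DET2. Of its 56 genes 26 were tested, and 5 had an interaction below 0 and 1 above 0 (23.1% called, beside 6.07% of all tested genes), with a median interaction of 0.02. In CT 8 of the 26 were higher in NR than in WT and 1 lower, with a median difference of 0.01. Besides 7-dehydrocholesterol reductase and DET2 these were a delta(24)-sterol reductase-like gene (Solyc02g069490) at −2.80 and 2 beta-amyrin 11-oxidase-like genes, Solyc12g006460 at −2.72 and Solyc10g007860 at −4.00. Beta-amyrin 11-oxidases modify triterpenes, and the sterol reductases act on sterols in general and not on brassinosteroids alone. Solyc10g007860 had 8.74 to 16.8 CPM in NR CT libraries but 0.0565 to 0.493 CPM in NR LTMH. In WT it had 0.0274 to 0.352 CPM in LTMH and 0.112 to 0.69 CPM in CT, so its value rests on few reads outside NR CT. The call of Solyc10g007860 (adjusted p = 0.0433) was lost without any of 8 of the 14 libraries, and its value moved most without WT LTMH replicate 2, to −2.32 with an adjusted p of 0.485. The member above 0 was a sulfotransferase 12-like gene (Solyc05g011890) at 1.28 ± 0.18. Both acetoacetyl-CoA thiolase 2 genes of the pollen development list, which make the first intermediate of the mevalonate pathway to sterols, were also below 0, Solyc05g017760 at −1.98 and Solyc07g045350 at −1.88.

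**Figure D2:**
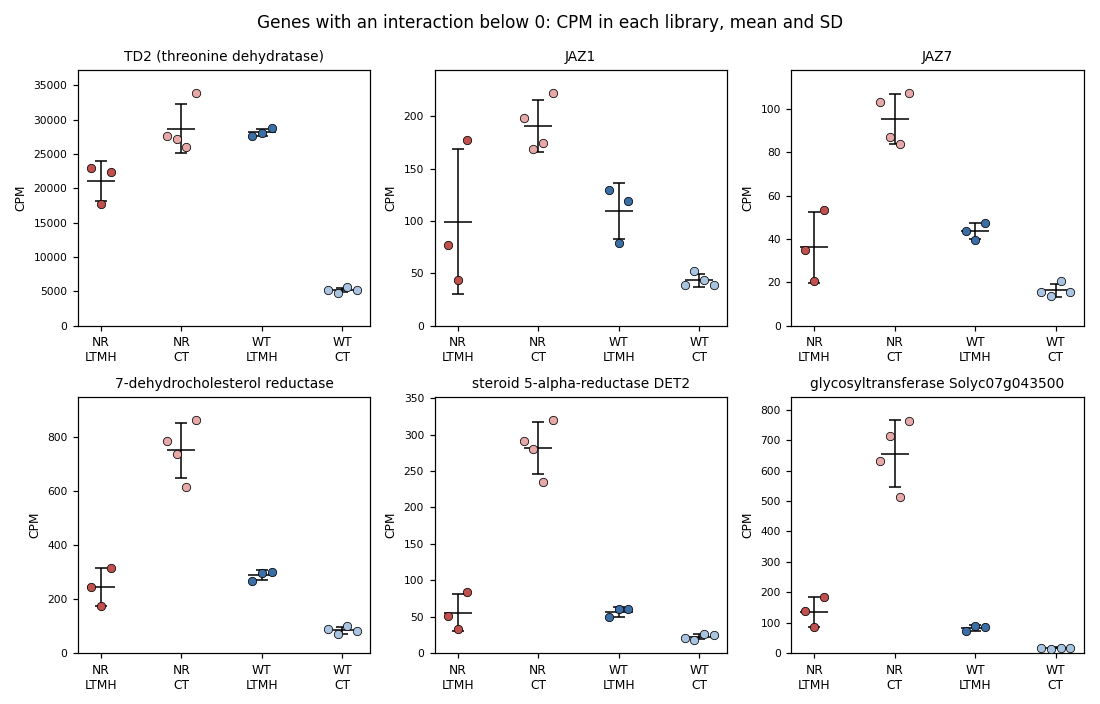
CPM in each library (points) with the group mean and SD (bars) for 6 genes with an interaction below 0; the groups on the x axis are NR LTMH, NR CT, WT LTMH and WT CT, and each y axis starts at 0. For all 6, the 4 NR CT libraries lie above the 4 WT CT libraries, while the LTMH libraries of both lines lie closer together, at 33 to 83.3 CPM in NR and 48.9 to 61.1 CPM in WT for DET2.

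Other annotated genes with a strongly negative interaction had regulatory or metabolic roles. Of 2 genes described as Myb4-like, related in name to an Arabidopsis repressor of phenylpropanoid genes, Solyc06g053610 had a log2 interaction of −3.80 ± 0.42 and Solyc06g083900 of −3.21 ± 0.48. Solyc06g083900 rose with LTMH in WT and was not called in NR, with 10.9, 7.42 and 23.8 CPM in NR LTMH and 11.8 to 17.1 CPM in NR CT libraries, against 37, 20.1 and 36.3 CPM in WT LTMH and 2.74 to 4.05 CPM in WT CT libraries. A SAUR36-like gene (Solyc08g079150), of a family named for its auxin-induced transcripts, had −3.03 ± 0.25, and a purple acid phosphatase (Solyc07g008570) −2.91 ± 0.49. An O-methyltransferase (Solyc02g077530) rose in both lines, by 2.31 in NR and by 5.30 in WT, which gave −2.99 ± 0.51. In CT it was at 1.56 to 3.24 CPM in NR against 0.12 to 0.391 CPM in WT, and in LTMH the lines overlapped.

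The light harvesting genes were the list with the most calls above 0. They encode chlorophyll a-b binding proteins, which hold the pigments of the photosynthetic antenna, and mark green tissue. All 23 were tested, and 20 were called above 0 and none below, beside 2.87% of all tested genes above 0. The median log2 interaction was 1.34, with a median response of 0.12 in NR and −1.17 in WT. LTMH lowered 20 of them in WT and none in NR, and raised none in WT and 1 in NR. In LTMH 19 were higher in NR than in WT, and in CT 1 was higher and 6 were lower. The study chose this list from genes that differed from these WT LTMH libraries, so a low level there is not independent evidence; the NR libraries had no part in that choice.

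Solyc07g063600, a chlorophyll a-b binding protein 13, had 167, 182 and 141 CPM in NR LTMH and 224, 201, 167 and 168 CPM in NR CT libraries, against 61, 59.1 and 43.9 CPM in WT LTMH and 314, 270, 330 and 284 CPM in WT CT libraries. The NR groups overlapped and the WT groups did not. Its log2 interaction was 2.24 ± 0.19 (adjusted p = 1.15e-05). CAB13, which carries the same description, had a log2 interaction of 2.17 ± 0.17 (adjusted p = 5.24e-06), with 213 to 251 CPM in NR LTMH and 170 to 231 CPM in NR CT, against 70.2 to 93.6 CPM in WT LTMH and 305 to 350 CPM in WT CT libraries. Among annotated genes that kept their call when any library was left out, the most positive interactions were those of 2 further members at lower levels, Solyc12g006140 at 3.80 ± 0.39 and Solyc06g069730 at 3.40 ± 0.30. Reads of such similar genes can be split between copies, so single members are less certain than the direction of the group. The summed level of the list was 6037 to 6768 CPM in NR LTMH and 5416 to 6450 CPM in NR CT, against 3173 to 3806 CPM in WT LTMH and 7796 to 8484 CPM in WT CT libraries, so NR libraries lay between the WT groups at both temperatures.

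Some genes of carbon fixation and sugar metabolism were also called, mostly above 0. A rubisco activase (Solyc09g011080), which keeps the carbon-fixing enzyme active, rose in NR and fell in WT, with a log2 interaction of 3.32 ± 0.37 (adjusted p = 7.36e-05) at 0.797 to 4.05 CPM over all libraries. Of 110 tested carbohydrate metabolism genes 11 were above 0 and 3 below, which is 12.7% beside 6.07% of all tested genes, with a median of 0.12. In the fit of all 29 libraries, 10 responses were more positive and 10 more negative in NR than in 35S::nahG. Over all tested genes these shares were 6.37% and 7.95%. Against 35S::asCCD7 the list held 4 and 1, beside 0.883% and 1.95% of all tested genes. CYFBP, named as a cytosolic fructose-1,6-bisphosphatase of sucrose synthesis, had 25.1, 32.3 and 22.9 CPM in NR LTMH and 24.2, 22.1, 20.9 and 19.9 CPM in NR CT libraries, against 17, 14.9 and 14.4 CPM in WT LTMH and 38.6, 33.5, 37.4 and 34.6 CPM in WT CT libraries. The NR groups overlapped and the WT groups did not, and the log2 interaction was 1.52 ± 0.16 (adjusted p = 4.24e-05). CFBP1 at 0.87, 3 aldolase genes of the FBA1/2 type at 0.94, 1.00 and 1.18, and the beta-amylases BAM1 at 1.02 and BAM9 at 0.94 were also above 0. Lowest was VIF, an invertase inhibitor, at −1.91 ± 0.43 (adjusted p = 0.0132). It rose in both lines, to 2.64 to 4.27 CPM in NR LTMH and 8.48 to 12.6 CPM in WT LTMH libraries, and its call was lost in a fit of all 29 libraries (adjusted p = 0.0561).

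Of 60 tested sugar transporters 3 were above 0 and 3 below, beside 2.87% and 3.2% of all tested genes, so their number was near that of other genes. SlSWEET11c, of the SWEET family of sugar exporters, fell in both lines but less in NR, with 2.93, 3.87 and 4.07 CPM in NR LTMH and 10.9 to 21.8 CPM in NR CT libraries, against 0.792, 0.686 and 2.33 CPM in WT LTMH and 20.4 to 41.7 CPM in WT CT libraries. The interaction was 2.54 ± 0.53 (adjusted p = 0.0082). SlINT2, of the inositol transporter family, had 25.9, 19.9 and 39.2 CPM in NR LTMH and 18.2 to 24.2 CPM in NR CT libraries, against 26, 22.7 and 28.9 CPM in WT LTMH and 3.15 to 3.33 CPM in WT CT libraries. Its interaction of −2.53 ± 0.26 (adjusted p = 4.26e-05) thus lay mostly in the CT libraries.

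Of 22 tested TIR1/AFB auxin receptors and AUX/IAA repressors 4 were above 0 and none below, beside 2.87% and 3.2% of all tested genes. IAA16 had 24.9, 26.7 and 25.4 CPM in NR LTMH and 21.1 to 27.5 CPM in NR CT libraries, against 15.3, 15.8 and 14.2 CPM in WT LTMH and 36 to 46 CPM in WT CT libraries. It fell in WT and was not called in NR, and the interaction was 1.61 ± 0.13 (adjusted p = 8.1e-06). IAA14 at 1.40, IAA7 at 1.21 and IAA4 at 0.61 were the other called members, and the list's median was 0.05. In the wider auxin signalling list 5 of 98 tested genes were above 0, among them these 4, and 2 were below. Of 2 genes there with the description auxin response factor 9-like, Solyc08g008380 had −1.16 ± 0.10 and Solyc01g096070 0.89 ± 0.18, in opposite directions. The auxin response list leaned the other way, with 3 of 174 tested genes above 0 and 7 below. So did the TIR1/AFB and AUX/IAA list against 35S::nahG, with 1 response more positive and 6 more negative in NR (median −0.50). Over all tested genes these shares were 6.37% and 7.95%. In CT 10 of its members were higher in NR than in 35S::nahG and none lower. Against the 35S::asCCD7 response 1 was more positive and none more negative (median −0.09).

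**Figure D3:**
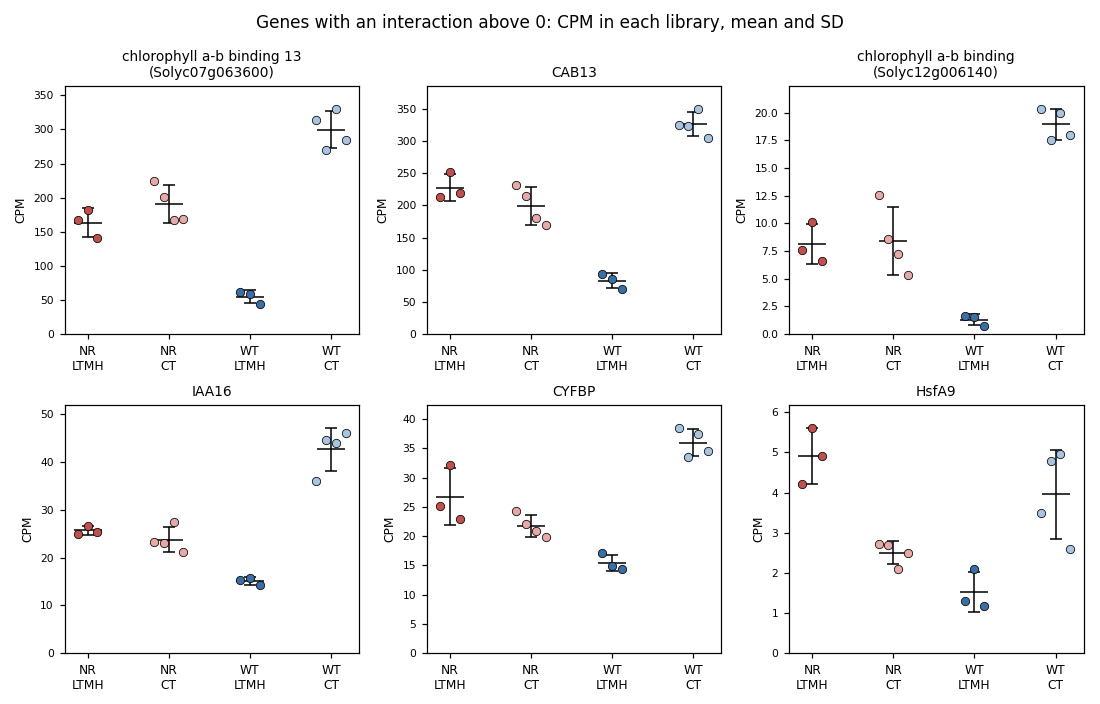
CPM in each library (points) with the group mean and SD (bars) for 6 genes with an interaction above 0; the groups on the x axis are NR LTMH, NR CT, WT LTMH and WT CT, and each y axis starts at 0. For CAB13 the WT LTMH libraries at 70.2 to 93.6 CPM are the lowest and the WT CT libraries at 305 to 350 CPM the highest, with both NR groups between them.

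Heat shock response genes were called at about the share of all genes. Of 219 listed genes 182 were tested, with 5 above 0 and 6 below, which is 6.04% beside 6.07% of all tested genes, and a median interaction of 0.00. LTMH raised 26 of these genes and lowered 3 in NR, and raised 22 and lowered 9 in WT. Of the small heat shock proteins, chaperones that hold unfolding proteins, none of 16 tested had a called interaction in edgeR, though 6 had an unadjusted p under 0.05, DESeq2 called 1, and values ranged from −1.29 to 1.04. Hsp90-3 was also not called, at 341, 287 and 355 CPM in NR LTMH and 60 to 87.8 CPM in NR CT libraries, against 251, 120 and 282 CPM in WT LTMH and 38.9 to 80.6 CPM in WT CT libraries, and its interaction was 0.18 ± 0.39 (adjusted p = 0.826). Its log2 response was 2.13 in NR and 1.96 in WT.

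The called chaperones below 0 were mostly those of the endoplasmic reticulum (ER), where secreted proteins fold. Hsp90-7, whose Arabidopsis counterpart is the HSP90 of the ER, had 523, 506 and 648 CPM in NR LTMH and 666, 635, 757 and 735 CPM in NR CT libraries, against 1112, 1070 and 1125 CPM in WT LTMH and 546, 621, 602 and 591 CPM in WT CT libraries. It rose in WT only, and all NR LTMH libraries were below all WT LTMH libraries. Its interaction was −1.22 ± 0.13 (adjusted p = 6.23e-05). BIP1, an ER HSP70, had −0.98 ± 0.14 (adjusted p = 0.000738), BIP4 −0.71 ± 0.17 and Hsp70/110-ER −0.86 ± 0.25. BIP3, with log2 responses of 3.14 in NR and 4.31 in WT, was not called, with an interaction of −1.17 ± 0.46 (adjusted p = 0.132). BIP2 lay above 0, at 0.47 ± 0.27, and was not called either (adjusted p = 0.318). Also below 0 were the chaperonin Cpn60-α (1) at −1.04 ± 0.16 and DnaJ-B at −0.83 ± 0.19, for which the annotation used gives no compartment. The paper lists Hsp90-7, Hsp70/110-ER, BIP3 and DnaJ-B as lower than WT in LTMH in the salicylic acid-deficient line too. It does not list BIP1, BIP4 or Cpn60-α (1), and lists BIP2 as higher. Against that line in LTMH, none of 6 tested HSP90 genes was called in NR, and 1 of 18 HSP70 genes was lower. The lower LTMH level of Hsp90-7 than in WT was thus not seen in NR alone.

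Above 0 were HsfA9, Hsp90-4 and 3 DnaJ genes. HsfA9, a heat shock factor known from seeds of other plants, had 4.22, 5.61 and 4.92 CPM in NR LTMH and 2.71, 2.7, 2.1 and 2.5 CPM in NR CT libraries, against 1.29, 2.09 and 1.17 CPM in WT LTMH and 3.48, 4.78, 4.95 and 2.59 CPM in WT CT libraries. It rose in NR and fell in WT, with an interaction of 2.35 ± 0.34 (adjusted p = 0.000708). In the fit of all 29 libraries, the NR response of HsfA9 minus that of the salicylic acid-deficient line was 2.08 (adjusted p = 0.000229). Minus that of the strigolactone antisense line it was 0.36 (adjusted p = 0.628). In LTMH the NR level minus that of these lines was 0.38 and −0.86. The paper also lists HsfA9 as higher in the salicylic acid-deficient line than in WT in LTMH. Its higher LTMH level than in WT was thus not seen in NR alone. Hsp90-4 had 1.06 ± 0.23 (adjusted p = 0.0109). DnaJ-C (Solyc09g092260), a co-chaperone, rose in NR to 8.21, 8.77 and 11.5 CPM in LTMH against 1.41 to 2.5 CPM in CT, while WT libraries were at 1.61 to 3.05 CPM at both temperatures. Its interaction of 1.89 ± 0.32 (adjusted p = 0.00209) was not called when all 29 libraries were fitted together (adjusted p = 0.123).

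No called interaction was found among the ethylene pathway genes that could be named, a small part of the pathway. The study's own ethylene gene sets were not used here, because the copy used is shortened. Of 25 genes that the annotation used describes as ethylene synthesis, receptor, EIN2 or ethylene-responsive factor genes, 16 were tested. The edgeR test called none, with 3 at an unadjusted p under 0.05, and DESeq2 called 0. At the 6.07% of all tested genes, a list of this size would hold few calls or none. One of them, the ethylene-responsive transcription factor 3-like gene Solyc07g064890, had an adjusted p of 0.00837 but a log2 interaction of only 0.28 ± 0.06. The receptor ETR1 had 36.2 to 41.3 CPM in NR LTMH and 34.8 to 39.8 CPM in NR CT, against 37.1 to 41.4 CPM in WT LTMH and 33.7 to 38.1 CPM in WT CT libraries, all overlapping, and its interaction was −0.06 ± 0.09 (adjusted p = 0.735). ETR2 had 0.07 ± 0.08 (adjusted p = 0.633). EIN2, the relay downstream of the receptors, had 170, 171 and 191 CPM in NR LTMH and 143 to 149 CPM in NR CT, against 174, 180 and 181 CPM in WT LTMH and 138 to 160 CPM in WT CT libraries, with an interaction of 0.04 ± 0.08 (adjusted p = 0.823).

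Genes of 1-aminocyclopropane-1-carboxylate synthase (ACS), which makes the ethylene precursor, were at low levels. The ACS gene Solyc08g081555 rose in both lines, with 1.92, 2.18 and 4.1 CPM in NR LTMH and 1.09 to 1.85 CPM in NR CT, against 3.61, 3.87 and 3.16 CPM in WT LTMH and 1.02 to 1.32 CPM in WT CT libraries. NR replicate 4 alone reached the WT LTMH level, and the interaction of −0.58 ± 0.37 (adjusted p = 0.367) became −0.99 with an adjusted p of 0.0418 without that library. ACS4 had −1.26 ± 0.79 (adjusted p = 0.364) and ACS1B 0.28 ± 0.54 (adjusted p = 0.804). The remaining 9 members lay between −0.05 and 0.44. The gene that carries the Never ripe change was not assigned to an identifier, and its transcript level would not show a receptor change in any case.

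Of 223 tested pollen development genes 3 were above 0 and 7 below, which is 4.48% beside 6.07% of all tested genes, with a median of 0.01. SPL8, a transcription factor of anther development in Arabidopsis, is represented by SlySBP8a at 1.58 ± 0.40 (adjusted p = 0.0253). The paper lists SlySBP8a as higher than WT in LTMH in the salicylic acid-deficient line too. A CER3 gene of wax synthesis (Solyc03g117800) had 1.80 ± 0.51 (adjusted p = 0.0413), a call that was lost without any of 12 of the 14 libraries. None of the 9 tested tapetum and exine markers was called by edgeR or DESeq2, with 1 at an unadjusted p under 0.05, at values from −4.87 to 0.71. CYP703A2, an exine synthesis enzyme, had 1.83, 4.3 and 2.18 CPM in NR LTMH and 939, 24.8, 169 and 70.1 CPM in NR CT libraries, against 22.9, 66.5 and 1.59 CPM in WT LTMH and 421, 49.8, 1069 and 405 CPM in WT CT libraries. Both CT groups spanned a wide range, and the interaction was −2.76 ± 1.80 (adjusted p = 0.381), not larger than the spread between libraries. AMS, a tapetum transcription factor, had 0.71 ± 0.80 (adjusted p = 0.636). The part of these cells in the called genes was not tested.

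**Figure D4:**
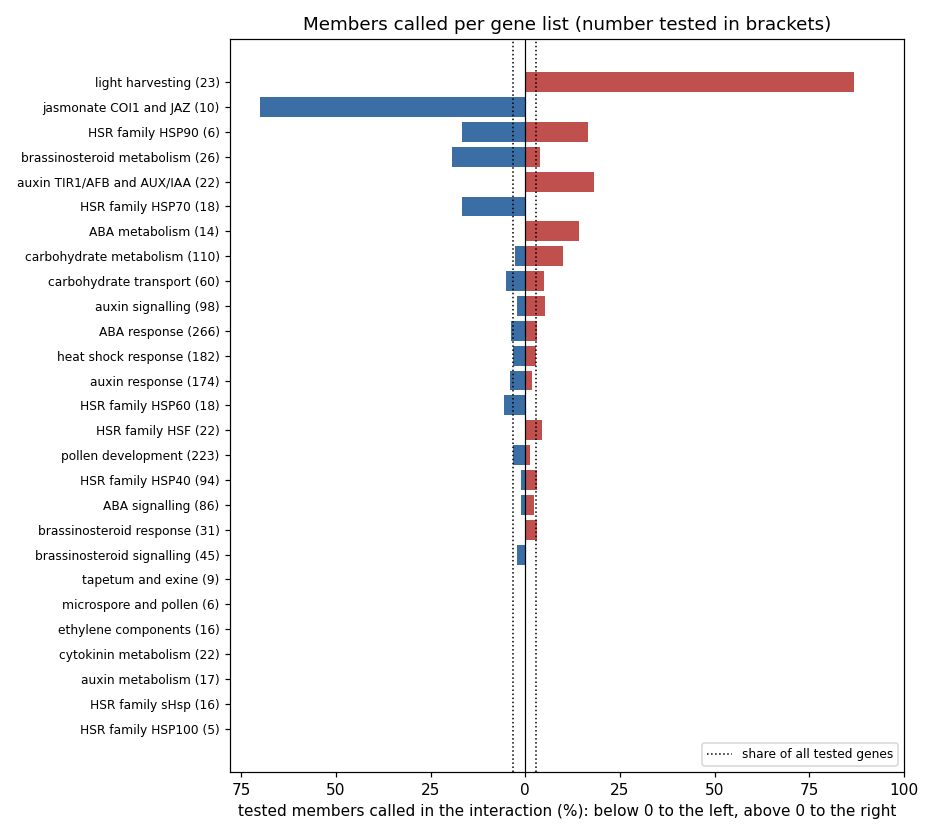
Share of the tested members of each gene list (number tested in brackets) that were called in the interaction, with those below 0 drawn to the left and those above 0 to the right; dotted lines mark 3.2% and 2.87% of all tested genes. Light harvesting with 20 of 23 and the COI1 and JAZ list with 7 of 10 stand far outside the dotted lines. The heat shock response list with 11 of 182 lies on them. The light harvesting list was chosen from genes that differed from these WT LTMH libraries, so its share is not independent evidence.

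The LTMH response of NR was also compared directly with that of the other lines, in a fit of all 29 libraries that holds no WT library in the contrast. It differed from the 35S::nahG response in 3100 of 21637 genes (14.3%), of which 1379 were more positive (6.37%) and 1721 more negative (7.95%) in NR, and from the 35S::asCCD7 response in 612 (2.83%), of which 191 were more positive (0.883%) and 421 more negative (1.95%). These comparisons share the NR libraries with each other and with the interaction, so they are given side by side. Of the 599 genes with an interaction above 0, 12 were higher and 7 lower in NR LTMH than in 35S::nahG LTMH. Against 35S::asCCD7 LTMH, 12 were higher and 16 lower. In CT, 302 of them were lower in NR than in 35S::nahG and 212 lower than in 35S::asCCD7. Their higher LTMH level in NR was thus mostly seen against WT alone, whose libraries had a part in their choice.

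TD2 averaged 21628 ± 2914 CPM in NR LTMH (SD, n = 3) and 29469 ± 3665 CPM in NR CT (n = 4). It averaged 23144 ± 3495 CPM in 35S::nahG LTMH (n = 3) and 3302 ± 360.1 CPM in 35S::nahG CT (n = 4), and 15434 ± 3456 CPM in 35S::asCCD7 LTMH (n = 4) and 3855 ± 659.9 CPM in 35S::asCCD7 CT (n = 4). The level in NR CT was thus high against each of the other lines and not against WT alone. The NR response of TD2 minus that of 35S::nahG was −3.26 on the log2 scale (adjusted p = 9.76e-10), and minus that of 35S::asCCD7 it was −2.45 (adjusted p = 8.53e-08). Of the 10 tested COI1 and JAZ genes, 6 had a lower response in NR than in 35S::nahG and 3 than in 35S::asCCD7, and 7 were higher in NR CT than in the CT libraries of either line. DET2 was higher in NR CT than in 35S::nahG CT by 4.35 on the log2 scale and than in 35S::asCCD7 CT by 4.44.

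The light harvesting list differed in a less simple way. Its median LTMH response was 0.12 in NR, −0.62 in 35S::nahG and −0.45 in 35S::asCCD7, and 14 and 5 of the 23 genes had a more positive response in NR than in 35S::nahG and in 35S::asCCD7. Against these lines the difference lay in CT, where 17 genes were lower in NR than in 35S::nahG and 13 lower than in 35S::asCCD7, and none was called in LTMH. Against WT it lay mostly in LTMH, as given above. The choice of the list favoured genes with a low WT LTMH level, so that part is not independent evidence. CAB13, under the same limit, was at 234 ± 22.1 CPM in NR LTMH and 251 ± 26.4 CPM in 35S::nahG LTMH (SD, n = 3 each). It was at 244 ± 116 CPM in 35S::asCCD7 LTMH (n = 4) and 85.9 ± 12.3 CPM in WT LTMH (n = 3). In CT it was at 204 ± 29.9 CPM in NR, 564 ± 54.8 CPM in 35S::nahG, 478 ± 33.9 CPM in 35S::asCCD7 and 337 ± 19.1 CPM in WT (n = 4 each).

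**Figure D5:**
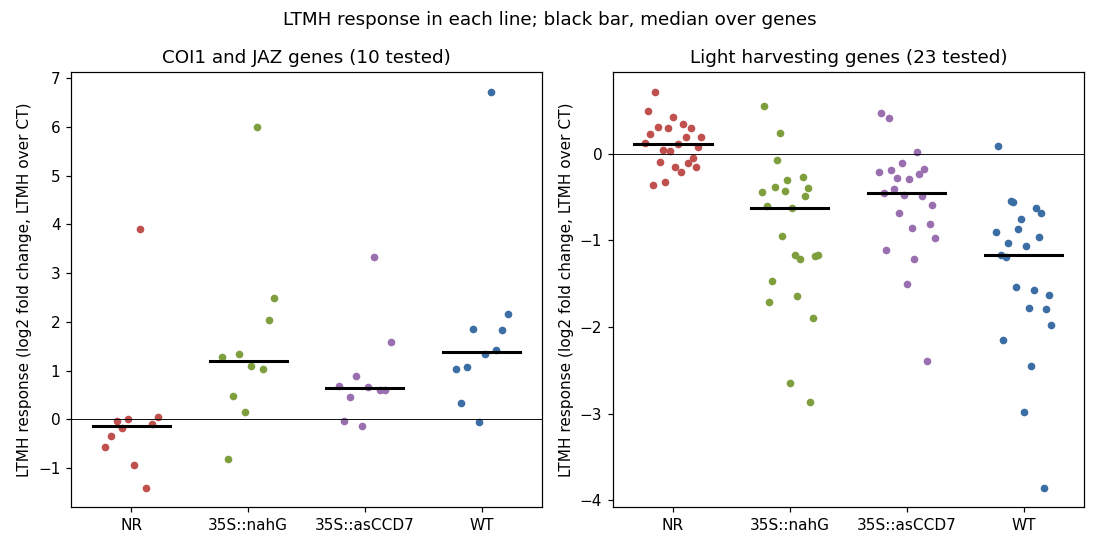
Log2 LTMH response (LTMH over CT) of the 10 tested COI1 and JAZ genes and the 23 light harvesting genes in each line, from a fit of all 29 libraries; each point is 1 gene and the black bar is the median. The median of the COI1 and JAZ list is −0.13 in NR, 1.19 in 35S::nahG, 0.64 in 35S::asCCD7 and 1.38 in WT, and that of the light harvesting list is 0.12 in NR, −0.62 in 35S::nahG, −0.45 in 35S::asCCD7 and −1.17 in WT.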

How the data were processed

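Whole-read counts per gene were deposited by the authors, who aligned reads with HISAT2 2.0.5 and counted them with featureCounts 1.5.0-p3, per the submitters' processing notes; the FPKM values deposited beside them were not used in any result. The library kit does not mark strand, so overlapping and antisense genes cannot be told apart. Analyses used edgeR 4.0.16 under R 4.3.3. Of 35092 genes, 1167 of them without a Solyc identifier, filterByExpr (minimum count 10) kept 20895 in the 14 NR and WT libraries. After TMM scaling one cell-means model was fitted over 4 groups, and each contrast was given a two-sided quasi-likelihood test (glmQLFit, glmQLFTest), its p-values adjusted by Benjamini and Hochberg's method across the genes kept. A gene was called at an adjusted p under 0.05 and a fold of at least 1.5. NR was compared with 35S::nahG and 35S::asCCD7 in a fit of all 29 libraries (21637 genes). Alternatives were DESeq2 1.42.0, RLE normalization, no filter, no fold threshold, all libraries in one fit, a replicate block and leaving out each library. The procedure was tested on simulated data.

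Members and lists were chosen with earlier results of these data known. Named genes were the annotated ethylene genes, the 10 most positive and 10 most negative annotated interactions with at least 1 CPM on average that were called without any single library, the most extreme called member of each list in each direction, and the most extreme genes of all. The COI1 and JAZ list is given by member, and the other genes given are members of counted lists, chosen after their values were seen. Names and descriptions come from the study's gene sets and supplement. These described 223 of the 1268 called genes, so the annotated genes named are not a sample of all called genes. No promoter or protein sequence was used here. No 2 libraries of a group held identical counts.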

Additional observations from a re-analysis of the deposited data

Results flagged for a closer look

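The LTMH response differed between NR and WT in 1268 genes in the fit of 14 libraries, and in 1107 in that of 29. In the fit of 29 it differed in 3100 genes for NR against 35S::nahG and 612 for NR against 35S::asCCD7. Each count is from the test of the difference itself. The named genes called in the interaction are listed for the same reason, with their log2 interaction. Genes with strongly negative values were Solyc07g043500 at −4.55, Solyc06g053610 at −3.80, Solyc10g086500 at −3.67, Solyc06g074090 at −3.38, Solyc06g083900 at −3.21 and Solyc08g079150 at −3.03. Further ones were Solyc02g077530 at −2.99, Solyc07g008570 at −2.91, TD2 at −2.88, Solyc06g005750 at −2.88 and Solyc10g007860 at −4.00. The JAZ genes were JAZ7 at −2.81, JAZ1 at −2.28, JAZ4 at −2.11, JAZ3 at −2.02, JAZ2 at −1.93, JAZ6 at −1.59 and JAZ5 at −1.09. Heat shock response genes were HsfA9 at 2.35, DnaJ-C at 1.89, Hsp90-4 at 1.06, Hsp90-7 at −1.22, Cpn60-α (1) at −1.04, BIP1 at −0.98 and DnaJ-B at −0.83.

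Photosynthesis genes were Solyc12g006140 at 3.80, Solyc06g069730 at 3.40, Solyc09g011080 at 3.32, Solyc07g063600 at 2.24 and CAB13 at 2.17. Sugar genes were SlSWEET11c at 2.54, CYFBP at 1.52, VIF at −1.91 and SlINT2 at −2.53. Members of the hormone lists were IAA16 at 1.61, Solyc08g008380 at −1.16, Solyc05g053410 at 0.73, Solyc01g095700 at 0.85 and Solyc02g083850 at −2.19. These lists also held the sulfotransferase Solyc05g011890 at 1.28, the kinase regulator Solyc09g075750 at 1.44 and the 14-3-3-like gene Solyc11g010200 at −0.82. Others were the homeobox gene Solyc04g005800 at 2.26, the glycosyltransferase Solyc02g067690 at 2.18, the transmembrane protein gene Solyc10g086570 at 1.99 and the CER3 gene Solyc03g117800 at 1.80. Where some group held no more than 3 reads per library, fitted values depend on the prior count and are no bounds, namely 9.27 for Solyc06g005880, −11.53 for Solyc02g090470, −5.37 for the seipin gene Solyc04g056380 and −4.16 for the lipoxygenase Solyc08g014000.

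Single CT libraries stood apart from the other 3 of their group in 9 of 138 gene and group pairs, and chance alone gives about 1 in 20. The gap was judged against the range of the group, so it could be small in CPM. Neighbouring genes described as ethylene-insensitive protein 2 on chromosome 9 were high in WT CT replicate 3, Solyc09g005523 at 24.7 CPM beside 10.3 to 12.4, Solyc09g005527 at 6.36 beside 3.3 to 3.82 and Solyc09g005540 at 5.58 beside 3.02 to 3.3. Solyc09g005523 was also high in NR CT replicate 1, at 15.5 CPM beside 10.4 to 11. WT CT replicate 3 and NR CT replicate 1 had the highest summed tapetum and exine levels of their groups, 4016 and 3559 CPM, and the part of this was not tested. In NR CT, Solyc10g006130 was at 19.7 CPM in replicate 4 beside 17 to 17.3. There Solyc04g005800 was at 7.36 CPM in replicate 1 beside 4.29 to 4.73. Solyc08g008380 was at 31.4 CPM in NR CT replicate 3 beside 32.5 to 32.6. In WT CT, Solyc10g086570 was at 40.7 CPM in replicate 4 beside 46.9 to 48. Solyc07g043500 was at 14.1 CPM in WT CT replicate 2 beside 17.5 to 18.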

How the results depend on the processing

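Without the fold threshold the counts were 2005 genes for the interaction, 5321 for the LTMH response in NR, 8054 for that in WT, 3610 for NR against WT in LTMH and 5535 in CT. Other settings kept each count within 1.5 times. The interaction had 1558 genes in DESeq2, 1288 with RLE, 1207 without the filter, 1107 in a fit of 29 libraries, and 958 (without WT LTMH replicate 4) to 1785 (without NR LTMH replicate 4) with 1 library left out; the cause was not tested. With a replicate block it had 1105 genes, of which 1027 were among the 1268. Same-numbered libraries did not deviate together as a rule. Of 18 such pairs 6 correlated above 0.1 (median 0.04), and 4 of 14 libraries correlated best with their own number. The numbers were therefore not taken as pairs. The highest correlation, 0.41, was between NR LTMH replicate 4 and WT LTMH replicate 4. Both had the highest value of their group on the first principal component, 79.1 and 58.7. Whether they share a cause was not tested. The block ended the calls of VIF (adjusted p = 0.0532), Solyc10g007860 (0.0628), Solyc03g117800 (0.149) and the lipoxygenase Solyc08g014000 (0.138) and no other named call. The NR response against that of 35S::nahG gave 3501 genes in the libraries of both lines alone and 2852 with the block, and against 35S::asCCD7 420 and 649. Among the values of 69 named genes over all settings, 1250 kept their side of the threshold, 58 lost a call, 2 gained one and none reversed. JAZ2 and JAZ3 each lost their call without any of 9 libraries, and JAZ4 without WT LTMH replicate 4. With 3 LTMH libraries a group, genes that vary as the tapetum markers do have intervals too wide to show even large differences.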

Other observations

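Of 266 tested abscisic acid (ABA) response genes 8 were above 0 and 10 below, which is 6.77% beside 6.07% of all tested genes, and the median was 0.01. In the ABA signalling list 3 of 86 tested genes were called (3.49%). A PYL9-like receptor (Solyc01g095700) had a log2 interaction of 0.85 ± 0.18, with 15.5 to 22.2 CPM in NR LTMH and 16.1 to 19.3 CPM in NR CT, against 10.5 to 13.5 CPM in WT LTMH and 17.4 to 22.4 CPM in WT CT libraries. A calcium-dependent protein kinase 28-like gene (Solyc02g083850) had −2.19 ± 0.46. In the ABA metabolism list 2 of 14 tested genes were called, a zeaxanthin epoxidase (Solyc02g090890) at 0.70 ± 0.09, an enzyme on the way to ABA, and a gene described as phytochrome b (Solyc05g053410), a light receptor, at 0.73 ± 0.12. By edgeR none of 22 tested cytokinin metabolism genes was called (3 at an unadjusted p under 0.05, 1 called by DESeq2) and none of 17 tested auxin metabolism genes (4 at an unadjusted p under 0.05, 0 called by DESeq2).

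Among the 12 chromosomes, leaving out 18 tested genes whose identifiers name chromosome 0 (none called) and 139 with no chromosome in their identifier (3 called), the share of tested genes that were called was lowest on chromosome 11, with 69 of 1402 (4.92%), and highest on chromosome 3, with 157 of 2227 (7.05%).

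The most extreme values of all belonged to genes with few reads. Solyc02g090470 had 0 to 1 reads in NR LTMH and 5 to 19 reads in NR CT libraries, against 11 to 25 reads in WT LTMH and 0 reads in WT CT libraries. Solyc06g005880 had 5 to 15 reads in NR LTMH and 0 to 2 reads in NR CT libraries, against 0 to 1 reads in WT LTMH and 0 to 99 reads in WT CT libraries. Neither has a description in the annotation used, and no fold is given because at least 1 group of each held at most 3 reads per library.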
